A study of Mus musculus with 12 samples.

Results

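The aquaporin-4 complex of the astrocyte endfoot was followed through 9 genes: the water channel Aqp4, the matrix ligand Agrn, its receptor Dag1, the cytoplasmic partners Dmd, Dtna and Sntb1, the membrane proteins Mlc1 and Hepacam, and the gap junction gene Gja1. They were taken by name from a list of endfoot genes and matched to the Ensembl identifiers of the deposited count table through the GENCODE M21 annotation of GRCm38 (mm10). All 9 were present among the 14881 genes of the table and all 9 passed the filter on low counts, which removed no gene.

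Astrocytes ensheath brain vessels with flattened processes, the endfeet, whose vessel-facing membrane is packed with the water channel aquaporin-4. The channel is held there through syntrophin, dystrobrevin and a short dystrophin isoform, which connect to dystroglycan, a receptor for agrin and laminin in the vascular basal lamina. This anchoring is studied for its part in the movement of cerebrospinal and interstitial fluid along vessels, a route by which amyloid beta leaves the tissue.

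RNA was sequenced from single hippocampi of 12 male mice of the APPswe strain, which carries a mutant amyloid precursor protein transgene, at 22 to 26 months of age. Every animal was given 5 µL of an AAV1 vector into the cisterna magna, carrying eGFP as control or mouse VEGF-C (mVEGF-C), a growth factor of lymphatic endothelium, in both cases behind the ubiquitous CMV promoter. Every animal also received weekly intraperitoneal doses of 40 mg/kg of control mouse immunoglobulin (mIgG) or of mAducanumab (mAdu), an antibody to aggregated amyloid beta. Of the 4 groups of 3, eGFP+mIgG was given to mice 1 to 3 and eGFP+mAdu was given to mice 4 to 6, while mVEGF-C+mIgG went to mice 7 to 9 and mVEGF-C+mAdu went to mice 10 to 12, so that no group was free of the transgene, the vector or an injected antibody.

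Counted reads per library ran from 23213612 to 29295266, and reads on a single endfoot gene ran from 83 for Sntb1 in mouse 8 to 5919 for Aqp4 in mouse 4. The sample source label names meninges where the series description names hippocampus, so both were checked. The median level ran from 56.5 to 92.5 CPM (reads of a gene relative to the scaled library total) over 11 markers of hippocampal neurons, from 52.7 to 64.4 CPM over 16 astrocyte markers and from 3.7 to 7.59 CPM over 14 markers of meningeal and perivascular fibroblasts. Libraries 3, 6, 9 and 12 held the middle value of their group in 79.2% to 85.9% of the genes that varied beyond counting noise (chi-square test, p under 0.001), against at most 12.8% for any other library. They are called the intermediate libraries, and the results are also given without them. Why they lay between the others was not tested, and the series description assigns each library to its own mouse. Should an intermediate library share RNA with the others of its group, n = 3 and 6 mice against 6 would overstate the replication. The p-values would then be too small and the intervals of the changes too narrow.

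Levels of the endfoot genes differed little between treatments. None of the 9 passed an adjusted p of 0.05 in any of 9 comparisons by the edgeR quasi-likelihood test (Benjamini-Hochberg), and their fitted changes ran from -10.1% (Agrn) to 9.98% (Dmd). With Sntb1 set aside for its low counts, the 95% intervals of the other 8 members in the comparisons of groups and the averaged effects reached from -16.9% to 19.5%, or -0.27 to 0.26 on the log2 scale. In this fit of 12 libraries, larger changes of these 8 transcripts lay outside the intervals, while changes of a few percent were within them. Without the intermediate libraries the standard errors (SE) were larger. For Aqp4 with mAdu under mVEGF-C the log2 change was then 0.13 (SE 0.106), against 0.11 (SE 0.0689) before. The intervals hold only if the 12 libraries are independent. Tissue from a whole hippocampus was sequenced in bulk, so a change in the number of astrocytes and a change in RNA per astrocyte could not be told apart.

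Few genes passed anywhere in the table, which sets the background for the count of 0 members. For mAdu against mIgG, 0.0336% of all genes passed with eGFP and 0.208% with mVEGF-C. For mVEGF-C against eGFP, 0.0403% passed with mIgG and 0.047% with mAdu. The combined treatment against the double control gave 2.18%, the interaction of vector and antibody 0.0134%, the antibody averaged over vectors 0.571%, the vector averaged over antibodies 0.39%, and the test of any difference among the 4 groups 0.618%. At an unadjusted p below 0.05, the members numbered 0 of 9, 2 (Mlc1 and Gja1), 1 (Dmd), 2 (Dmd and Dtna), 3 (Agrn, Dmd and Gja1), 0, 1 (Gja1), 3 (Agrn, Dmd and Dtna) and 2 (Dmd and Gja1) in the same order. The shares of all genes below that p were 9.21%, 12.7%, 7.91%, 14.3%, 20.4%, 6.82%, 15.5%, 16% and 17.6%. DESeq2 called 0 members in 8 comparisons and 1, Dmd, for the vector averaged over antibodies. The comparisons reuse groups (eGFP+mIgG serves as control in 3 of the group comparisons), so they are given side by side and are not independent.

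A second description used the separation of the mice. For mAdu against mIgG with eGFP, 0 of 9 members had groups that did not overlap, where 15.4% of all genes did. With mVEGF-C they numbered 2 (Gja1 higher, Mlc1 lower) beside 16.5% of all genes. For mVEGF-C against eGFP they numbered 2 with mIgG (Dmd and Dtna, both higher), beside 12.4%, and 3 with mAdu (Dmd and Sntb1 higher, Mlc1 lower), beside 21.7%. For the combined treatment they numbered 5 (Dmd, Dtna and Gja1 higher, Mlc1 and Hepacam lower), beside 27.2%. Over 6 mice against 6, Dmd alone separated the vectors, as did 1.01% of all genes, and 0 members separated the antibodies, as did 0.921% of all genes. The plot of CPM by mouse shows how close the groups lie.

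**Figure D1:**
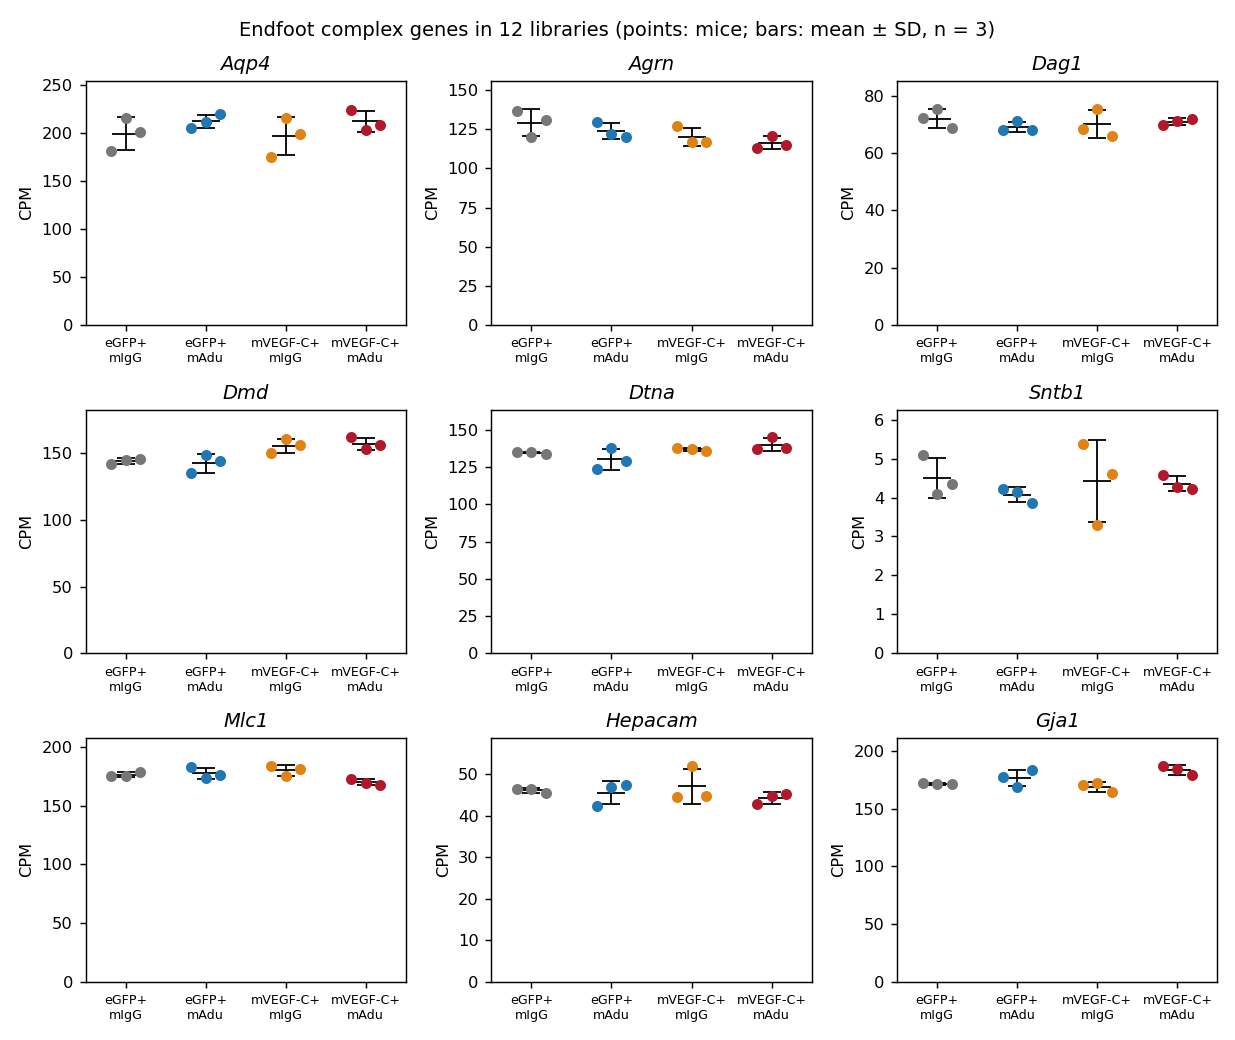
CPM (vertical axis, from 0) of the 9 endfoot genes, with 1 point per mouse and bars for mean ± SD (n = 3) in each of the 4 groups. Dmd lay between 135 and 149 CPM in the 6 eGFP mice and between 150 and 162 CPM in the 6 mVEGF-C mice, while the groups of Aqp4 overlapped in every comparison.

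Agrn encodes agrin, a heparan sulfate proteoglycan of the basal lamina that binds dystroglycan. The gene (ENSMUSG00000041936) lies on the minus strand at chr4:156165290-156197488. The 250 bases before its annotated first start in RefSeq (GRCm38.p6, chr4:156197489-156197738, minus strand) are printed because Agrn had the lowest adjusted p of the members in the combined comparison. Capitals mark GGGCGG, the GC box, read on both strands. It occurred 12 times, with 1 pair overlapping, and it was present in 32.7% of 32851 such windows. GC content was 83.6%, against a median of 52.4% over the windows. The window of a second RefSeq start (chr4:156186260-156186509), not printed, held GGGCGG 2 times and had a GC content of 60.8%. A count per gene adds transcripts from both starts.
Agrn: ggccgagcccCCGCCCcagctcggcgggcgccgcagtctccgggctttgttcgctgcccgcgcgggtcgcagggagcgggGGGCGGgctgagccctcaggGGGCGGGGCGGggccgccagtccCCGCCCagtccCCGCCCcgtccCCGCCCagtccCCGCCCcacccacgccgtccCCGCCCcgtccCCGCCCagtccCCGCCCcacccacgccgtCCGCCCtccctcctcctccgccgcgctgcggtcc

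Agrn was measured at 137, 120 and 131 CPM in mice 1 to 3 (eGFP+mIgG) and at 130, 122 and 120 CPM in mice 4 to 6 (eGFP+mAdu). It was measured at 127, 117 and 117 CPM in mice 7 to 9 (mVEGF-C+mIgG) and at 113, 121 and 115 CPM in mice 10 to 12 (mVEGF-C+mAdu). Group means ran from 129 ± 9.02 CPM in the double control to 116 ± 4.14 CPM in the combined group (SD, n = 3), and the groups overlapped because mouse 2 lay below mouse 11. The combined comparison gave a log2 change of -0.15 (SE 0.0529, or -10.1% with a 95% interval from -16.9% to -2.84%), and the adjusted p = 0.119 from the edgeR quasi-likelihood test (Benjamini-Hochberg). Without mouse 2 the change was -0.204 with an adjusted p = 0.046, so that 1 library decided whether Agrn passed. The vector averaged over antibodies gave -0.10 (SE 0.0374, adjusted p = 0.219).

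Dag1 encodes dystroglycan, the transmembrane receptor that binds agrin and laminin outside the cell and dystrophin inside. The gene (ENSMUSG00000039952) lies at chr9:108204634-108263958 on the minus strand. Its levels were 72.1, 75.2 and 68.6 CPM in eGFP+mIgG, 67.9, 71.1 and 68.1 CPM in eGFP+mAdu, 68.4, 75.5 and 66.1 CPM in mVEGF-C+mIgG, and 69.7, 71.3 and 72 CPM in mVEGF-C+mAdu. The 4 groups overlapped throughout, with a coefficient of variation of 4.12% over the 12 mice. Its log2 changes ran from -0.06 (mAdu with eGFP, SE 0.0495) to 0.08 (interaction, SE 0.0702), with no unadjusted p below 0.05.

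Dmd encodes dystrophin, which connects dystroglycan to actin and, in its short astrocyte isoform, to syntrophin and aquaporin-4. The gene (ENSMUSG00000045103) spans chrX:82948870-85206141 on the plus strand. The RefSeq windows used here hold starts of its transcripts at 82948870 and 85048295, 2.1 Mb apart, and may not hold every start. A count per gene adds the isoforms from all starts. The 250 bases before each of these listed starts are printed because Dmd was the member nearest to the threshold and its isoforms differ between cell types. The first window (chrX:82948620-82948869) held TATAAA and TGANTCA once each, at -245 to -240 and -185 to -179 from the start, and had a GC content of 45.2%. The second (chrX:85048045-85048294) held GGGCGG 3 times, with 1 pair overlapping, and had a GC content of 60.0%. TATAAA, the sequence of the TATA box, was present in 12.4% of all windows of this length and TGANTCA, that of the AP-1 site, in 6.75%. Both strands were searched. The TATAAA copy of the first window lay on the opposite strand, and use of the motifs was not tested. Capitals mark these motifs.
Dmd first start: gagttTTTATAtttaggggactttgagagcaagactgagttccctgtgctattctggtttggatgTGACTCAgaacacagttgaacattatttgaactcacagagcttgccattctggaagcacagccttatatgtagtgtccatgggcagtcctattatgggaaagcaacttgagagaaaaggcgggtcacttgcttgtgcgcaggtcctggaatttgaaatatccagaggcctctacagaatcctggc
Dmd second start: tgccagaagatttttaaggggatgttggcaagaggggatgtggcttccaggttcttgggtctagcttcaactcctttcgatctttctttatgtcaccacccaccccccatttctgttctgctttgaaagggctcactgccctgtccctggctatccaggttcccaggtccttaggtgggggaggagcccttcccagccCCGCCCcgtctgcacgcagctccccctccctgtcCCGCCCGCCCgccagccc

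Dmd was higher in every mVEGF-C mouse than in any eGFP mouse. Its levels were 142, 145 and 146 CPM in eGFP+mIgG and 135, 149 and 144 CPM in eGFP+mAdu. They were 150, 161 and 156 CPM in mVEGF-C+mIgG and 162, 153 and 156 CPM in mVEGF-C+mAdu. The eGFP mice reached 148.6 CPM and the mVEGF-C mice began at 150.1 CPM, so the gap was narrow beside the means of 144 ± 4.63 and 156 ± 4.5 CPM (SD, n = 6).

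Averaged over antibodies, the log2 difference of Dmd between the vectors was 0.12 (SE 0.0296), or 8.79% with a 95% interval from 4.15% to 13.6%. By the edgeR quasi-likelihood test (Benjamini-Hochberg) the adjusted p = 0.0886 missed the threshold. The change was 0.11 (SE 0.0419, adjusted p = 0.593) with mIgG, 0.14 (SE 0.0418, adjusted p = 0.168) with mAdu and 0.12 (SE 0.0419, adjusted p = 0.127) in the combined comparison. The interaction was 0.03 (SE 0.0592) and the antibody difference averaged over vectors was 0 (SE 0.0296). DESeq2 gave 0.121 with an adjusted p = 0.0346. By edgeR, the adjusted p = 0.0433 without mouse 5 and the adjusted p = 0.0396 without mouse 7 passed as well. Every other single omission missed, with an adjusted p of up to 0.215. Calls over all genes rose too, from 58 to 155 with DESeq2, 188 without mouse 5 and 253 without mouse 7. Without the 4 intermediate libraries the change was 0.13 (SE 0.0479) with an adjusted p = 0.816, in a fit that called 0 of all genes.

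Neurons, oligodendrocytes and smooth muscle also transcribe Dmd. Of the marker lists, the 10 oligodendrocyte genes all lay higher with mVEGF-C averaged over antibodies (median log2 change 0.11, 1 of 10 called, Mobp). All 14 fibroblast markers (median -0.42, 0 called) and all 10 ependymal markers (median -0.35, 0 called) lay lower. So did 6 of 8 choroid plexus markers (median -0.22, 1 called, Ttr) and 5 of 8 pericyte and smooth muscle markers (median -0.11, 0 called). Over all genes 49.2% of the changes were positive. The oligodendrocyte list did not follow Dmd in every comparison. With mVEGF-C under mIgG 10 of its 10 genes were higher (median 0.12, Dmd 0.11), and under mAdu 8 (median 0.06, Dmd 0.14). In the combined comparison 4 of 10 were higher (median -0.06, Dmd 0.12). In the log2 level of the neuron list, each library lay between -0.04 and 0.03 of the mean. In that of the hippocampal neuron list the libraries ran more widely, from -0.12 to 0.18. The part of these cell types in the Dmd values was not tested.

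Dtna encodes alpha-dystrobrevin, a dystrophin partner that binds syntrophin. It was measured at 135, 135 and 134 CPM in eGFP+mIgG, 124, 138 and 129 CPM in eGFP+mAdu, 138, 137 and 136 CPM in mVEGF-C+mIgG, and 137, 145 and 138 CPM in mVEGF-C+mAdu. With mIgG the mVEGF-C mice lay just above the eGFP mice, and with mAdu mouse 5 reached into the mVEGF-C range. Between the vectors, the log2 difference of Dtna was 0.02 (SE 0.0407) with mIgG, 0.10 (SE 0.0406) with mAdu and 0.06 (SE 0.0287) averaged over antibodies, none below an adjusted p = 0.268 by the edgeR quasi-likelihood test (Benjamini-Hochberg).

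Sntb1 encodes beta-1-syntrophin, one of the adaptors that bind dystrophin, and it was the least abundant member. Its levels were 5.08, 4.09 and 4.34 CPM in eGFP+mIgG, 4.23, 4.13 and 3.85 CPM in eGFP+mAdu, 5.38, 3.3 and 4.61 CPM in mVEGF-C+mIgG, and 4.57, 4.28 and 4.23 CPM in mVEGF-C+mAdu. The spread within mVEGF-C+mIgG covered every other mouse. Its coefficient of variation of 12.4% was the highest of the 9, its SE of 0.15 on the log2 scale for the antibody with eGFP compared with 0.035 to 0.0688 for the others, and no unadjusted p was below 0.05.

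Aqp4 itself was not called in any comparison. It was measured at 181, 215 and 201 CPM in eGFP+mIgG and at 205, 211 and 219 CPM in eGFP+mAdu. It was measured at 175, 215 and 199 CPM in mVEGF-C+mIgG and at 224, 203 and 208 CPM in mVEGF-C+mAdu. The 6 mAdu mice lay between 203 and 224 CPM, within or above the mIgG range of 175 to 215 CPM, and the 2 lowest values belonged to mice 1 and 7, both given mIgG.

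With the antibody, Aqp4 differed by 0.09 (SE 0.0688) under eGFP, 0.11 (SE 0.0689) under mVEGF-C and 0.10 (SE 0.0487) averaged over vectors. The averaged difference was 7.23% with a 95% interval from -0.193% to 15.2% and an adjusted p = 0.337 by the edgeR quasi-likelihood test (Benjamini-Hochberg). With the vector, it differed by -0.02 (SE 0.069) under mIgG, 0 (SE 0.0687) under mAdu and -0.01 (SE 0.0487) averaged over antibodies, where the 95% interval ran from -7.54% to 6.72%. The combined comparison gave 0.09 (SE 0.0689, adjusted p = 0.488) and the interaction 0.02 (SE 0.0974, adjusted p = 0.995). The vector effects and the interaction changed sign when single libraries were left out, whereas the antibody and combined differences stayed positive. No omission of 1 library brought an adjusted p of Aqp4 below 0.139.

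Mlc1 and Hepacam encode membrane proteins that bind each other at astrocyte junctions and endfeet, and mutations in either cause a leukodystrophy with cysts in people. Mlc1 (ENSMUSG00000035805, chr15:88955884-88979007, minus strand) was the steadiest member, with a coefficient of variation of 2.79%. Its levels were 175, 175 and 179 CPM in eGFP+mIgG, 183, 174 and 176 CPM in eGFP+mAdu, 184, 175 and 181 CPM in mVEGF-C+mIgG, and 173, 169 and 168 CPM in mVEGF-C+mAdu. The 3 mice with both treatments were the 3 lowest of the 12. Under mVEGF-C the log2 difference of Mlc1 with the antibody was -0.08 (SE 0.0351, adjusted p = 0.346 by the edgeR quasi-likelihood test (Benjamini-Hochberg)), and the interaction was -0.09 (SE 0.0495, adjusted p = 0.8).

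Hepacam (ENSMUSG00000046240, chr9:37367351-37386575, plus strand) was measured at 46.4, 46.4 and 45.4 CPM in eGFP+mIgG and 42.3, 46.9 and 47.4 CPM in eGFP+mAdu. It was measured at 44.5, 51.9 and 44.6 CPM in mVEGF-C+mIgG and 42.7, 44.6 and 45.3 CPM in mVEGF-C+mAdu. The combined group lay below the double control, with mouse 12 almost level with mouse 3. Its largest difference between groups was -0.09 (SE 0.0609, adjusted p = 0.601), for mAdu under mVEGF-C.

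Gja1 encodes connexin 43, the main gap junction protein of astrocytes. The gene (ENSMUSG00000050953) lies at chr10:56377330-56402513 on the plus strand. The 250 bases before its RefSeq start (chr10:56377050-56377299, GRCm38.p6, plus strand) are printed because Gja1 had the lowest adjusted p of the members for the antibody. They held 1 copy of TGANTCA, in capitals, at -19 to -13 from the start. Neither TATAAA nor, on either strand, GGGCGG was found in this window.
Gja1: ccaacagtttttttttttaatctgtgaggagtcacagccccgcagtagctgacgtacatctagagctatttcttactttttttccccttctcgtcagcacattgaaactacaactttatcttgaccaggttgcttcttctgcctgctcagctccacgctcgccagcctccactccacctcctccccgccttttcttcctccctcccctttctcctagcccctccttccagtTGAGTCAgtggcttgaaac

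Gja1 was measured at 172, 171 and 171 CPM in eGFP+mIgG, 177, 169 and 183 CPM in eGFP+mAdu, 170, 172 and 164 CPM in mVEGF-C+mIgG, and 187, 184 and 179 CPM in mVEGF-C+mAdu. The 3 mice with both treatments lay above all 6 mIgG mice, while mouse 5 of eGFP+mAdu lay among them. Under mVEGF-C the log2 difference of Gja1 with the antibody was 0.12 (SE 0.0375), or 8.81% with a 95% interval from 2.96% to 15%, and an adjusted p = 0.186 by the edgeR quasi-likelihood test (Benjamini-Hochberg). Under eGFP the difference was 0.04 (SE 0.0374), and the interaction of 0.08 (SE 0.053, adjusted p = 0.823) did not separate the 2 vectors. The combined comparison gave 0.10 (SE 0.0375, adjusted p = 0.156) and the antibody averaged over vectors 0.08 (SE 0.0265, adjusted p = 0.16).

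As a set, the members were centred on 0 in each comparison. Their median log2 change was -0.02 and 0.01 for the antibody with eGFP and with mVEGF-C, -0.02 and 0.04 for the vector with mIgG and with mAdu, and -0.02 for the combined treatment. It was 0.03 for the interaction, -0.02 for the averaged antibody effect and 0 for the averaged vector effect, and the median over all genes was 0 in each. The members with a positive change numbered 3, 5, 4, 6, 4, 7, 2 and 5 of 9 in that order. Summed over the 9 genes, the level ran from 1060 to 1110 CPM over all 12 mice. The plot of changes with their intervals shows that most intervals contain 0.

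**Figure D2:**
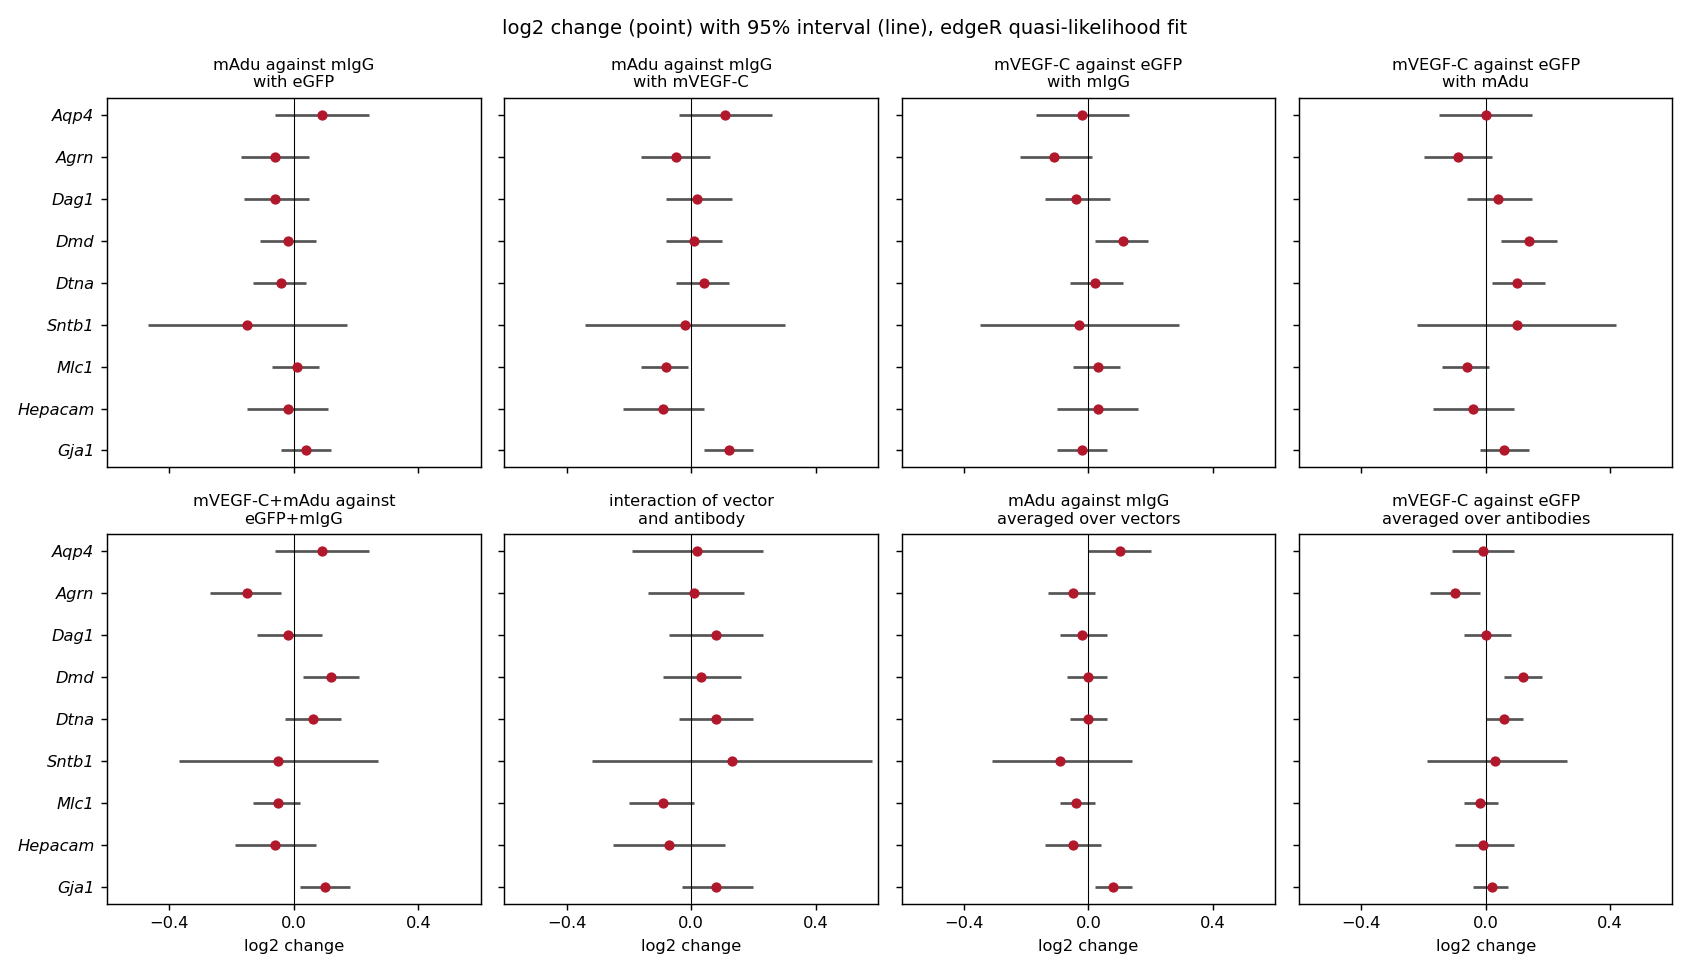
Fitted log2 change (horizontal axis) of each endfoot gene in 8 comparisons, with points for the estimate and lines for the 95% interval of the edgeR fit. Dmd lay to the right of 0 in the 4 panels that contrast mVEGF-C with eGFP mice, Aqp4 lay near 0 in the vector panels, and Sntb1 had the widest lines.

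Leaving out the intermediate libraries called 0 of 9 members in every comparison. Over all genes of the table that fit called from 0 to 2 in each comparison, so the count of 0 says little about the members. The lowest member adjusted p was then 0.608, in the combined comparison, by the edgeR quasi-likelihood test (Benjamini-Hochberg) on 8 libraries. Of 72 signs of member changes, 9 turned, each of a change of at most 0.03 on the log2 scale. Gja1 under mVEGF-C kept its antibody difference of 0.12, and the combined difference of Agrn was -0.13.

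Levels of different genes were compared per kilobase of annotated exon (RPKM), on exon lengths from 2801 bases for Mlc1 to 23801 for Dmd. Mlc1 had the highest level, with a median of 62.6 RPKM (60.1 to 65.5 over the 12 mice), followed by Aqp4 at 33.2 (28 to 35.9) and Gja1 at 16.7 (16 to 18.2). Hepacam at 13.6 (12.6 to 15.5) and Agrn at 13 (12.2 to 14.8) overlapped, so their order was not resolved. Dag1 followed at 11.1 (10.4 to 11.9), Dtna at 8.04 (7.33 to 8.56), Dmd at 6.28 (5.68 to 6.81) and Sntb1 at 0.799 (0.62 to 1.01). The union of exons overstates the length of genes with short isoforms, as in Dmd and Dtna, and so understates their level. The plot of RPKM sets the span of the members beside that of the groups.

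**Figure D3:**
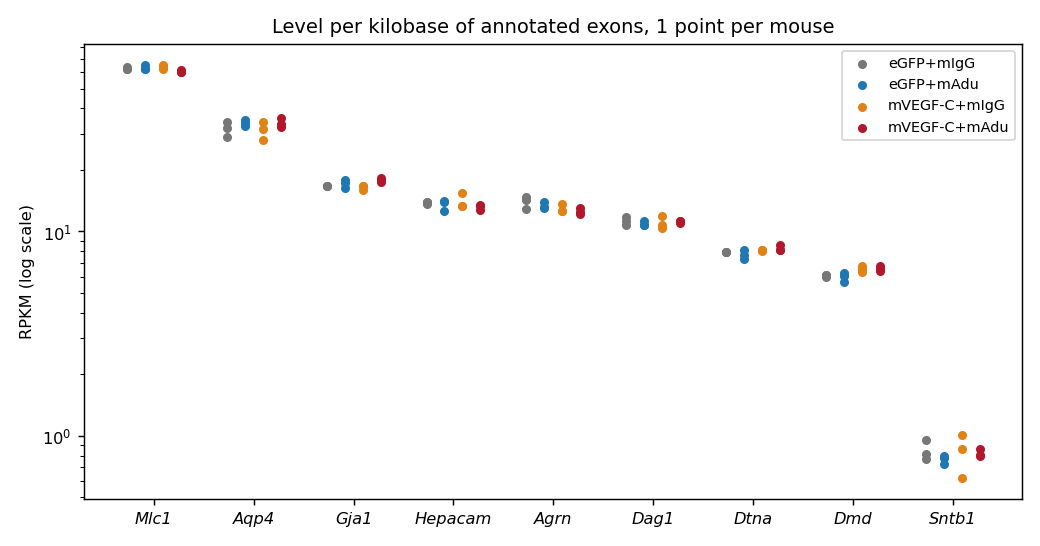
RPKM (vertical axis, log scale) of the 9 endfoot genes ordered by median, with 1 point per mouse coloured by group. The genes span 0.62 to 65.5 RPKM, a far wider span than that of the groups within any gene. For Dmd the mVEGF-C mice lay above the eGFP mice, and for Mlc1 the mVEGF-C+mAdu mice lay lowest.

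Over the 12 libraries, the 5 named genes most like Aqp4 by Pearson's r of log2 CPM, among 13180 genes, were Oxr1 (r = 0.962), Fermt1 (0.952), Necab1 (0.948), Plcxd2 (0.941) and Tent4b (0.935). Spearman's rho was 0.923, 0.839, 0.895, 0.909 and 0.965 in that order. Without mice 7 and 1, the farthest from the median of Aqp4, r was 0.863, 0.8, 0.795, 0.717 and 0.902, and without the intermediate libraries 0.97, 0.956, 0.952, 0.942 and 0.992. They were the highest of many correlations over libraries that share depth and group, and are a description of rank. No member was among them. The r with Aqp4 was 0.449 for Gja1, 0.275 for Dmd, 0.236 for Dag1, 0.164 for Hepacam, -0.108 for Dtna, -0.446 for Mlc1, -0.682 for Agrn and -0.754 for Sntb1. The 2 mice lowest in Aqp4, 1 and 7, were the highest in Sntb1, at 5.08 and 5.38 CPM, and r for that pair was -0.353 without them.

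Aqp4 (ENSMUSG00000024411, minus strand) lies at chr18:15389496-15410982 and Dtna (ENSMUSG00000024302, plus strand) at chr18:23415135-23659715. Dtna shares 90 exonic bases with Gm47898 on the opposite strand, which is not in the table, and the use of strand in counting is not given in the sources used here. Sntb1 (ENSMUSG00000060429, minus strand) lies at chr15:55636388-55906949.

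No gene of the wider complex passed, where 0.0134% to 2.18% of all genes passed in a comparison, so a count of 0 in short lists says little. Of 13 other measured genes of the dystrophin and dystroglycan complex, 0 passed in any comparison, and the smallest p in the test of any difference belonged to Drp2 (adjusted p = 0.172). Of 13 glycosyltransferases and related genes that build the laminin- and agrin-binding sugars of dystroglycan, 0 passed in any comparison. In the test of any difference, 5 of the 13 complex genes and 1 of the 13 glycosylation genes had an unadjusted p below 0.05 (edgeR quasi-likelihood). The share of all genes was 17.6%. Median changes of both lists stayed between -0.04 and 0.04, while single complex genes ran from -0.25 to 0.57 in the combined comparison. Of the other aquaporins, Aqp9 (0.835 to 1.51 CPM) and Aqp11 (11.7 to 14.5 CPM) were measured and neither passed.

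A pair of lists held 1 called gene each, both lower in the combined group than in the double control. Among 13 vascular basal lamina genes, Lama1, a laminin chain of the outer, glial basal lamina, was 4.72, 4.42 and 4.61 CPM in mice 1 to 3 and 3.3, 3.4 and 2.78 CPM in mice 10 to 12. Its log2 change was -0.54 (SE 0.123, adjusted p = 0.0375 by the edgeR quasi-likelihood test (Benjamini-Hochberg)). In the same comparison 12 of the 13 genes had negative changes, 8 with an unadjusted p below 0.05, with a median of -0.23. Over all genes 20.4% were below that p, 48.9% had positive changes and the median was 0. Among 11 other endfoot channels, junctions and transporters, Gjb2, which encodes connexin 26, was 7.88, 6.51 and 7.26 CPM in mice 1 to 3 and 4.19, 4.65 and 4.35 CPM in mice 10 to 12. Its log2 change was -0.72 (SE 0.172, adjusted p = 0.0413), and 10 of the 11 genes were negative with a median of only -0.02. Kcnj10, the endfoot potassium channel often studied with Aqp4 and chosen after its values were seen, ran from 31.5 to 45.7 CPM and was not called. Without the intermediate libraries the adjusted p of Lama1 and of Gjb2 was 0.56, in a fit where 2 genes of the whole table passed in this comparison. Their log2 changes were then -0.448 and -0.707. With DESeq2 the adjusted p of Lama1 was 0.0534. Leaving out any of mice 1, 3, 6, 9, 10 or 12 also lost both calls (adjusted p from 0.0504 to 0.174), and leaving out mouse 11 lost that of Gjb2.

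Fibroblasts of the meninges also transcribe laminins and Gjb2, and their markers lay lower in the combined group than in the double control, although 0 of 14 were called. The summed level of the 14 fibroblast markers ran from 195 to 228 CPM in the double control and from 171 to 185 CPM in the combined group, and the mean log2 level of the list from 0.18 to 0.28 and from -0.32 to -0.16. In eGFP+mAdu the list level was 0.62, -0.38 and 0.30 in mice 4 to 6, where Gjb2 was 7.69, 4.53 and 5.19 CPM and Lama1 4.33, 3.57 and 4.02 CPM. Within this group, as in the double control, both genes ranked in the order of the list level. In the other groups only 1 of the genes did. At list levels of -0.04, -0.23 and -0.15 in mice 7 to 9, Lama1 was 3.38, 3.42 and 3.89 CPM. At -0.28, -0.16 and -0.32 in mice 10 to 12, Gjb2 was out of order. Each group holds an intermediate library, for which a middle rank was likely beforehand. Mouse 6, an intermediate library, had less of both than any double control, at a list level of 0.30 against 0.18 to 0.28. The 8 measured choroid plexus markers summed to 64.7 to 109 CPM in the double control and 47.9 to 49.1 CPM in the combined group, and the 10 ependymal markers to 56.5 to 70.8 and 38.7 to 55.9 CPM. All 14 fibroblast and 10 ependymal markers were in the table, and Kcne2, Aqp1 and Slc4a5 of the choroid plexus list were not. The part of such tissue in the Lama1 and Gjb2 results was not tested. The plot of list levels by mouse sets these lists beside the endfoot genes.

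**Figure D4:**
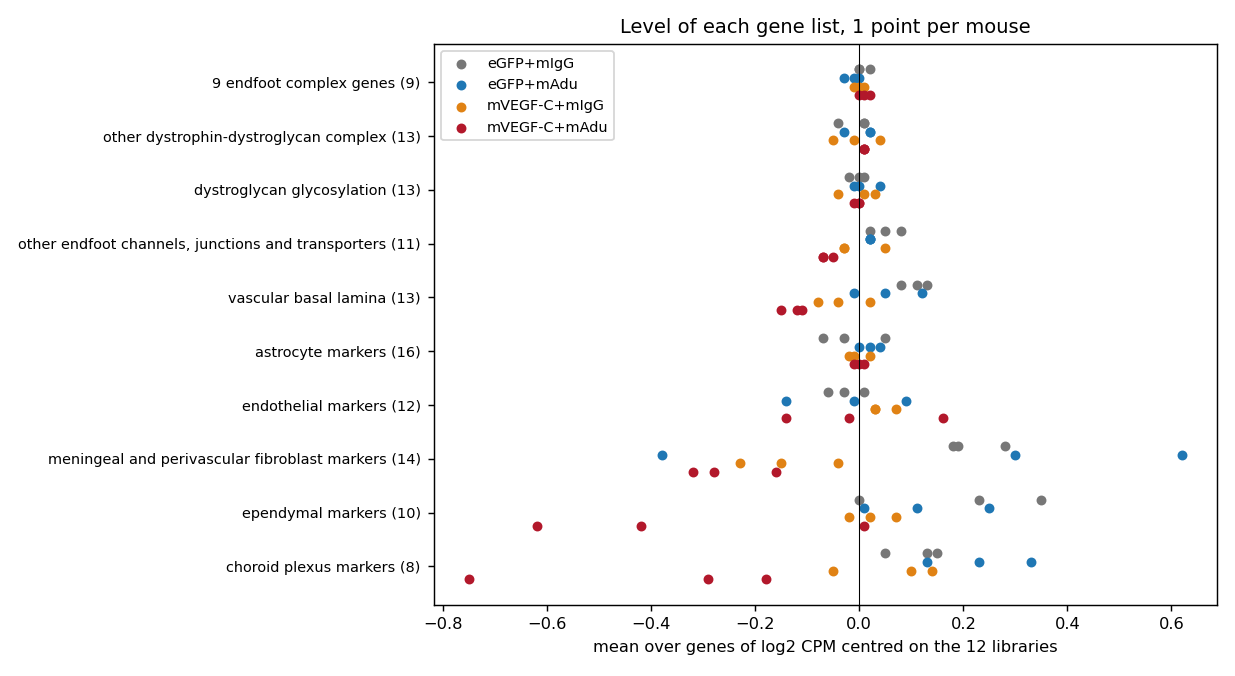
Mean over the genes of each list of log2 CPM centred on the 12 libraries (horizontal axis), with 1 point per mouse coloured by group and the number of measured genes in brackets. The endfoot genes stay between -0.03 and 0.02, whereas the choroid plexus and ependymal lists reach -0.75 and -0.62 in mVEGF-C+mAdu mice.

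The level of the astrocyte list varied little, but its genes ranged widely. In the combined comparison their log2 changes ran from -0.34 to 0.39, against -0.15 to 0.12 for the members. For the antibody averaged over vectors, 6 of 16 had an unadjusted p below 0.05 by the edgeR quasi-likelihood test. That compares with 1 of 9 members and 15.5% of all genes. For the vector averaged over antibodies it was 0 of 16, beside 3 of 9 members and 16% of all genes. Of 16 genes, 0 passed except in the combined comparison, where Aldh1l1, a folate enzyme used to mark astrocytes, was lower by -0.21 (SE 0.0514, adjusted p = 0.0457 by the edgeR quasi-likelihood test (Benjamini-Hochberg)), at 58.4 ± 3.23 against 50.6 ± 0.772 CPM (SD, n = 3). The level of the list stayed between -0.07 and 0.05 in every mouse, and in the combined comparison 8 genes were positive and 8 negative. Aqp4 followed the list level with r = 0.54 over 12 libraries (0.55 over 8), Agrn with -0.59 (-0.52), Sntb1 with -0.3 (-0.32), and the other 6 members lay between -0.08 and 0.06. Of the other lists, 0 genes passed among 12 endothelial, 14 fibroblast and 10 neuron markers in any comparison. Called genes in the combined comparison were Tagln of smooth muscle (-1.09), Ttr of choroid plexus (-1.62), Foxj1 (-0.55) and Tekt1 (-0.68) of ependyma, and C1qa (-0.43) and C1qb (-0.44) of microglia, all lower. With mVEGF-C against eGFP, Ttr was also lower under mAdu (-1.76) and averaged over antibodies (-1.39). Mobp of oligodendrocytes was higher with mVEGF-C under mIgG (0.44) and averaged over antibodies (0.29), and lower with mAdu under mVEGF-C (-0.34), as was C1qa (-0.55) in the latter. Mal (-0.23) of oligodendrocytes, Tekt1 (-0.43) and Dsp (-0.45) of dentate granule cells were lower with the antibody averaged over vectors. Each call of this paragraph was lost without the intermediate libraries, where adjusted p ran from 0.56 to 1. In that fit at most 2 genes of the whole table passed in any comparison, so the loss was not particular to these genes. Their log2 changes kept their signs. In the combined comparison they were then -0.194 for Aldh1l1, -0.91 for Tagln, -1.646 for Ttr, -0.483 for Foxj1, -0.697 for Tekt1, -0.436 for C1qa and -0.408 for C1qb. Omission of any single mouse other than 5 and 7 lost at least 1 of the calls.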

How the data were processed

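The authors deposited raw counts, with 1 column per mouse and no normalization. The submitters' processing notes name FastQC, STAR, Trim Galore, featureCounts of Subread, edgeR and build mm10. Versions, gene annotation, strand and multimapping settings: not given in the sources used here. Per the labels, RNA was extracted with a PicoPure kit and amplified linearly. GENCODE M21 named 14791 of 14881 identifiers.

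Counts of all 14881 genes were fitted with edgeR 4.0.16 (R 4.3.3): TMM scaling, filterByExpr, 1 mean per group, all 12 libraries, glmQLFTest, two-sided, Benjamini-Hochberg adjustment over all genes and a threshold of 0.05. The common biological coefficient of variation was 5.16%. CPM and RPKM use the TMM-scaled totals, and list levels and correlations use log2 CPM with a prior count of 2. Counting precision describes reads, not molecules. The procedure was tested on simulated data. Columns were assigned by the sample number in each title.

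The members and lists were chosen with earlier results of these data known. All 9 members were named, with list genes that passed (up to 4 per list), the gene of smallest p in lists of the complex where none passed, and the 5 genes of mean CPM of at least 1 most like Aqp4, leaving out predicted genes. Kcnj10 falls outside it and was picked with its values in view. A gene that it named is not reported here. Alternatives were DESeq2 1.42.0 size factors or tests, no filter, only the groups compared, leaving out libraries 3, 6, 9 and 12, and each library in turn. Promoter windows came from RefSeq (GRCm38.p6), where 6 of 9 members had entries.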

Additional observations from a re-analysis of the deposited data

How the results depend on the processing

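No paired analysis was possible because the sample numbers run from 1 to 12 and no number is shared between groups. Dropping the filter on low counts could change nothing, since it removed 0 genes, and is not counted. The count of called members stayed at 0 under the other alternatives in 7 of 9 comparisons. For the vector averaged over antibodies it was 1 (Dmd) with DESeq2 and ran from 0 to 1 when each library was left out, and for the combined comparison it ran from 0 to 1 (Agrn, without mouse 2). Of 1125 member changes under an alternative, 73 turned in sign, none of them called, and each belonged to a change of at most 0.128 on the log2 scale. Without the 4 intermediate libraries these were, for the antibody under mVEGF-C, -0.03 for Dag1 and 0.031 for Sntb1, for the interaction -0.039 for Agrn, for the averaged antibody 0.003 for Dmd and 0.002 for Dtna, and for the averaged vector -0.006 for Dag1, -0.002 for Sntb1, 0.006 for Aqp4 and 0.013 for Hepacam. Aqp4 for the vector with mAdu, at 0, also turned to -0.001 with DESeq2 and, at 0 to 3 decimals, with DESeq2 size factors and in the fit of only the groups compared.

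With each library left out in turn, the changes that turned covered these ranges. Antibody with eGFP: -0.049 to 0.019 for Dmd, -0.048 to 0.033 for Hepacam and -0.013 to 0.024 for Mlc1. Antibody with mVEGF-C: -0.019 to 0.078 for Dag1, -0.013 to 0.036 for Dmd and -0.193 to 0.138 for Sntb1. Vector with mIgG: -0.09 to 0.057 for Aqp4, -0.095 to 0.002 for Dag1, -0.047 to 0.067 for Hepacam and -0.189 to 0.142 for Sntb1. Vector with mAdu: -0.041 to 0.03 for Aqp4. Combined: -0.049 to 0.017 for Dag1 and -0.106 to 0.047 for Sntb1. Interaction: -0.036 to 0.059 for Agrn, -0.057 to 0.09 for Aqp4, -0.006 to 0.061 for Dmd, -0.122 to 0.006 for Hepacam and -0.043 to 0.288 for Sntb1. Averaged antibody: -0.039 to 0.01 for Dag1, -0.018 to 0.016 for Dmd and -0.025 to 0.014 for Dtna. Averaged vector: -0.045 to 0.029 for Aqp4, -0.027 to 0.021 for Dag1, -0.044 to 0.013 for Hepacam and -0.046 to 0.12 for Sntb1. The cause was not tested.

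Counts of all called genes moved more. In the order antibody with eGFP and with mVEGF-C, vector with mIgG and with mAdu, combined, interaction, averaged antibody, averaged vector and any difference, edgeR gave 5, 31, 6, 7, 324, 2, 85, 58 and 92, and DESeq2 gave 47, 126, 20, 119, 455, 8, 237, 155 and 428. On the 8 libraries without the intermediate ones they were 2, 0, 2, 0, 2, 0, 1, 0 and 2, and fits of only the groups compared gave 7, 6, 2, 62 and 610 for the 5 group comparisons. Single omissions took the combined count from 12 (mouse 12) to 594 (mouse 7). With 3 mice per group, changes within the intervals given for each member were not resolved, and Sntb1, at 83 to 140 reads per library, was limited further by depth.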
